A study of Homo sapiens with 6 samples.

Results

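A set of 10 genes of iron storage, iron uptake and ferroptosis control was followed in MV4-11 cells: the ferritin chains FTH1 and FTL, the ferritin receptor NCOA4, the transferrin receptor TFRC, the iron transporter SLC11A2, the ferric reductase CYBRD1, the iron regulatory protein IREB2, and the ferroptosis genes GPX4, ACSL4 and AIFM2. They were taken by symbol from a gene count table, and all 10 were found among its 20263 genes. MV4-11 is an established human acute myeloid leukemia line with a FLT3 internal tandem duplication and a KMT2A rearrangement, entered as WT under genotype in the labels. The 3 groups were cells given VEN+CSA, cells given VEN (venetoclax, a BCL2 inhibitor) and cells given CSA (cyclosporine A, a calcineurin inhibitor), all at 24 h and with 2 libraries each. The growth protocol gives 100 nM for VEN and 2.5 µM for CSA, and does not give the doses in the combination separately. All cells in these groups had received at least 1 drug, so levels in untreated cells were not analysed here, and no interaction of the drugs could be tested. The labels do not state whether the 2 libraries of a group are separate cultures, and the spread that the p-values rest on may thus be technical.

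Iron enters most cells bound to transferrin through TFRC, is reduced in endosomes, passes into the cytosol through SLC11A2, and is stored in shells built from FTH1 and FTL. NCOA4 carries ferritin to lysosomes, where the iron is released. The iron regulatory proteins ACO1 and IREB2 bind hairpins called iron-responsive elements when iron is scarce: bound in the 5′ untranslated region (UTR) they block translation of the ferritin chains, and bound in the 3′ UTR they protect the TFRC mRNA from decay. Free iron feeds the peroxidation of membrane lipids, and ferroptosis is the death that follows when the peroxides are not removed. ACSL4 supplies the oxidisable lipids, while GPX4, with glutathione, and AIFM2 (FSP1), with ubiquinone, act against the peroxides.

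The hairpins are shown because both ferritin chains and TFRC carry this signal in full, with SLC11A2 beside them for a looser match. The pattern searched in GENCODE 29 transcripts (build GRCh38) was CNNNNNCAGTGN, a bulged C and a loop, with 5 paired bases on either side of the upper stem. Each element below reads 5′ to 3′ on the gene's own strand, and the capitals mark the bulged C and the first 5 bases of the loop.
FTH1 5′ UTR, chr11:61967575-61967602, minus strand: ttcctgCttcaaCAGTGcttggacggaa
FTL 5′ UTR, chr19:48965335-48965362, plus strand: ctcttgCttcaaCAGTGtttggacggaa
TFRC 3′ UTR, chr3:196050980-196051007, minus strand: aattatCggaagCAGTGccttccataat
TFRC 3′ UTR, chr3:196050576-196050603, minus strand: cattatCgggagCAGTGtcttccataat
TFRC 3′ UTR, chr3:196050511-196050538, minus strand: ctgtatCggagaCAGTGatctccatatg
TFRC 3′ UTR, chr3:196050464-196050491, minus strand: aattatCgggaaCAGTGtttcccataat
SLC11A2 3′ UTR, chr12:50988269-50988297, minus strand: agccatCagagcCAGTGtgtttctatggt

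The FTH1 and FTL elements were identical at 25 of 28 bases. TFRC held 4 full matches to the pattern in a single 3′ UTR. The SLC11A2 element met the pattern only when 1 unpaired base was allowed on the 3′ side of its stem. Elements that fit neither form of the pattern would be missed, so these are counts of matches. A full match stood in the 5′ UTR of 31 of 18743 genes (0.165%) and in the 3′ UTR of 128 of 19063 genes (0.671%), and with the unpaired base the shares were 0.261% and 1.11%. The looser pattern also matched a transcript of IREB2 in the 3′ UTR and a transcript of AIFM2 across an exon junction in the 5′ UTR. Either pattern was thus met by 6 of the 10 genes, 3 of them in full. The matches describe sequence, and an effect of the elements on translation is not visible in mRNA counts.

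Total counts ranged from 26567900 to 30738957 per library, and all 10 genes passed the low-count filter, with 12690 genes tested. VEN replicate 2 stood apart. Mitochondrially encoded genes made up 41.5% of its counts, against 8.01% in VEN replicate 1, 8.06% and 15.2% in the VEN+CSA libraries and 7.41% and 9.71% in the CSA libraries. Fold changes against VEN, and of VEN against CSA, are therefore given with and without it for the 10 genes. All 8 markers of a monocytic leukemia line had counts, with summed levels of 1520 to 1590 CPM (depth-scaled counts) in VEN+CSA, 1640 to 1720 CPM in VEN and 1570 to 1650 CPM in CSA. The T cell markers were at 0, 5 of 6 erythroid markers were at 0 with a summed level of at most 0.169 CPM, and the summed B cell, epithelial and fibroblast lists reached no more than 3.42, 1.62 and 0.203 CPM. With bulk RNA, fewer cells and less RNA per cell cannot be told apart.

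Ferritin mRNA was the most abundant of the set. Per kilobase of a typical coding transcript, the median CPM over the 6 libraries was 5372 for FTL, 619 for FTH1, 246 for GPX4, 92.9 for NCOA4, 62.7 for TFRC, 30.1 for IREB2, 25.3 for ACSL4, 10.3 for SLC11A2, 7.81 for CYBRD1 and 2.78 for AIFM2. The range over libraries for FTL, 2918 to 5760 per kilobase, lay above that of FTH1, 460 to 990, which lay above that of GPX4, 173 to 253. Lower down, IREB2 (26.2 to 39.0) and ACSL4 (24.4 to 40.4) overlapped, as did SLC11A2 (8.91 to 12.7) and CYBRD1 (3.18 to 12.9).

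**Figure D1:**
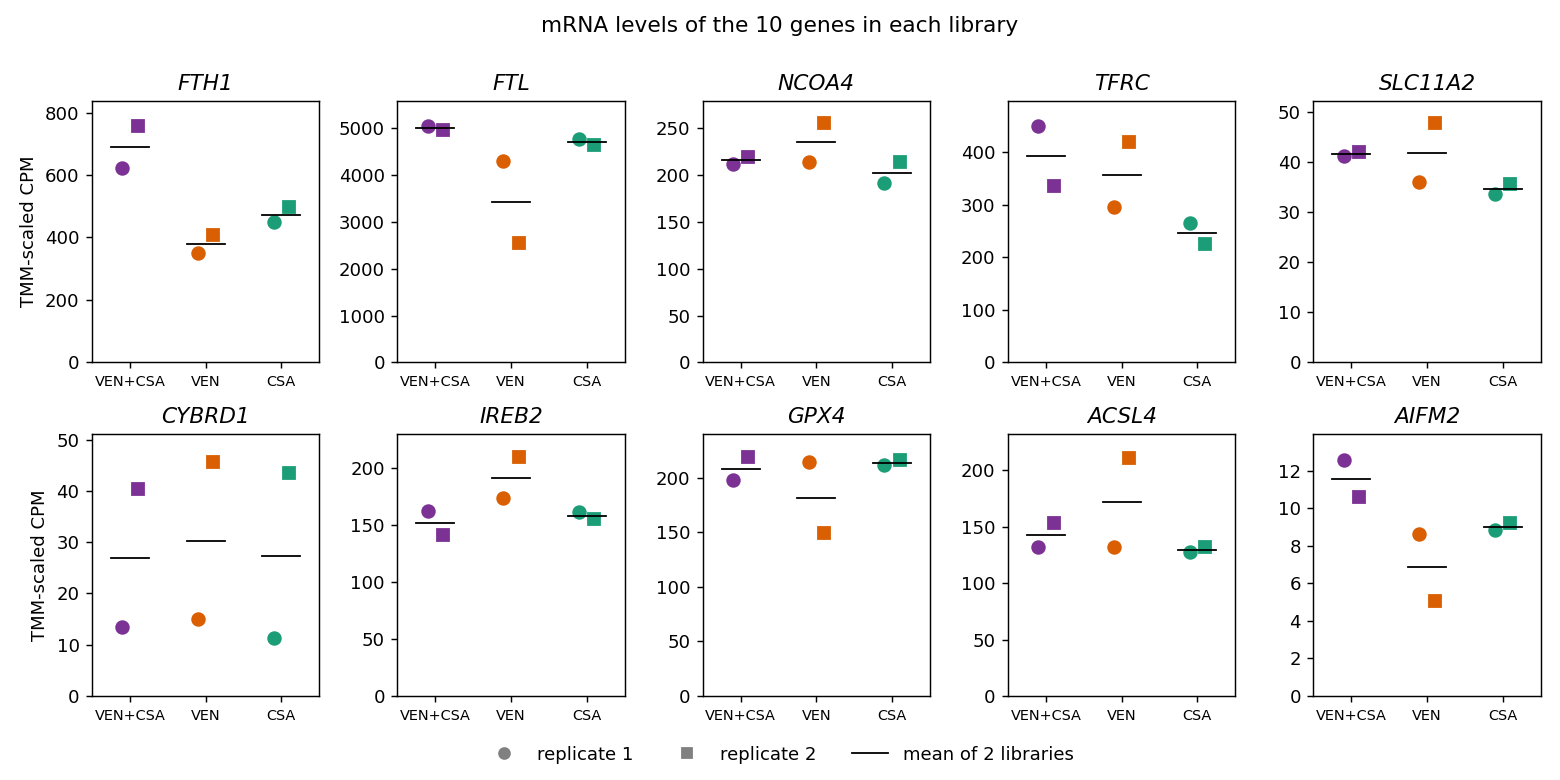
Level of each of the 10 genes in every library, as CPM scaled by the trimmed mean of M-values (TMM), each panel with its own axis from 0. Circles are replicate 1, squares replicate 2 and bars the mean of the 2 libraries. FTH1 lies at 621 and 756 CPM with VEN+CSA, above the other 4 libraries, and CYBRD1 is higher in replicate 2 of every group.

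FTH1 encodes the heavy ferritin chain, which oxidises iron for storage (chr11:61959718-61967660, minus strand, GRCh38). Its level, as TMM-scaled CPM here and below, was 621 and 756 with VEN+CSA, 351 and 408 with VEN, and 449 and 497 with CSA. Both VEN+CSA libraries lay above all others, both VEN libraries lay lowest, and no groups overlapped. The log2 fold change was 0.86 ± 0.18 (SE; 95% interval 0.42 to 1.296, 1.81-fold) against VEN and 0.54 ± 0.18 (0.11 to 0.98, 1.46-fold) against CSA. Neither passed edgeR's quasi-likelihood test, with p-values adjusted over all genes of 0.228 and 1. With VEN replicate 2 left out, the values were 0.98 ± 0.16 (adjusted p = 0.103) and 0.54 ± 0.13 (adjusted p = 0.291). DESeq2 called the difference from VEN (log2 fold change 0.86, adjusted p = 0.00762), where it called 2.23% of genes, and limma-voom did not (adjusted p = 0.208). Without VEN replicate 1 the edgeR value was 0.76, and edgeR called it. That fit had the library of 41.5% mitochondrially encoded counts as the only VEN library. Over all 13 alternatives the log2 fold change against VEN ran from 0.716 to 1.151. For VEN against CSA the value was −0.32 ± 0.18 (adjusted p = 0.633), and −0.43 ± 0.16 (adjusted p = 0.999) without VEN replicate 2.

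FTL encodes the light chain, which promotes the mineral core (chr19:48965301-48966878, plus strand). Its level was 5057 and 4961 CPM with VEN+CSA, 4314 and 2562 CPM with VEN, and 4782 and 4652 CPM with CSA. The groups stood in the same order as for FTH1 without overlap, and VEN replicate 2 was far below the other 5 libraries. Its log2 fold change was 0.54 ± 0.29 (adjusted p = 0.542) against VEN and 0.22 ± 0.12 (adjusted p = 0.434) without VEN replicate 2. Against CSA it was 0.09 ± 0.29 (adjusted p = 1), and VEN against CSA gave −0.46 ± 0.29 (adjusted p = 0.633), or −0.13 ± 0.12 (adjusted p = 0.999) without VEN replicate 2. Without VEN replicate 1, which leaves replicate 2 as the only VEN library, edgeR called FTL against VEN (0.97, adjusted p = 0.0173) and in VEN against CSA (−0.88, adjusted p = 0.0173). The proportion of the ferritin chains differed between libraries. FTL had 8.14 and 6.56 times the counts of FTH1 with VEN+CSA, 12.3 and 6.27 times with VEN, and 10.7 and 9.37 times with CSA. The VEN libraries spanned the whole range of this ratio, and the VEN+CSA libraries lay below the CSA libraries. GENCODE annotates 25 pseudogenes of FTH1 and 16 of FTL, none of them a row of the table, so reads shared with those copies are uncertain. BEST1, which overlaps FTH1 on the opposite strand by 1267 exon bases, had 1.62% to 3.04% of the FTH1 counts. Its log2 fold change with VEN+CSA was 0.94 ± 0.28 against VEN and 0.59 ± 0.28 against CSA, the direction of FTH1. Whether reads of these overlapping genes were mixed was not tested.

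NCOA4, the receptor for ferritin breakdown (chr10:46005088-46030714, minus strand) had 212 and 219 CPM with VEN+CSA, 215 and 256 CPM with VEN, and 192 and 214 CPM with CSA. VEN+CSA overlapped both single agents. This gave log2 fold changes of −0.12 ± 0.16 (−0.52 to 0.27, adjusted p = 0.778) against VEN, 0.09 ± 0.16 (−0.31 to 0.49, adjusted p = 1) against CSA and 0.21 ± 0.16 (adjusted p = 0.634) for VEN against CSA. When VEN replicate 2 was left out, the difference from VEN changed sign, at 0.01 ± 0.11 (adjusted p = 0.972), and VEN against CSA was 0.08 ± 0.11 (adjusted p = 0.999). GENCODE annotates 3 pseudogenes of NCOA4, which are likewise no rows of the table.

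TFRC, the receptor for iron-loaded transferrin (chr3:196027183-196082189, minus strand) had 449.7 and 336 CPM with VEN+CSA, 295 and 418 CPM with VEN, and 265 and 225 CPM with CSA. Both CSA libraries were lowest, and the VEN+CSA and VEN libraries overlapped. Against CSA the log2 fold change was 0.68 ± 0.25 (0.08 to 1.29, 1.60-fold, adjusted p = 1), and 0.68 ± 0.17 (adjusted p = 0.322) without VEN replicate 2. Against VEN it was 0.14 ± 0.24 (adjusted p = 0.837), and 0.42 without VEN replicate 2, which leaves replicate 1 as the only VEN library. VEN against CSA gave 0.54 ± 0.25 (adjusted p = 0.633), 0.26 ± 0.21 (adjusted p = 0.999) without VEN replicate 2, and 0.77 with an adjusted p of 0.0408 in edgeR without VEN replicate 1.

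SLC11A2, the endosomal iron transporter DMT1 (chr12:50979401-51028566, minus strand) had 41.1 and 42.0 CPM with VEN+CSA, 36.1 and 47.7 CPM with VEN, and 33.5 and 35.6 CPM with CSA. As for TFRC, both CSA libraries were lowest. Its log2 fold change against CSA was 0.27 ± 0.19 (adjusted p = 1), and 0.27 ± 0.10 (adjusted p = 0.405) without VEN replicate 2. Against VEN it was −0.01 ± 0.19 (adjusted p = 0.988), and 0.21 ± 0.12 (adjusted p = 0.464) without that library. VEN against CSA gave 0.28 ± 0.19 (adjusted p = 0.633), 0.06 ± 0.12 (adjusted p = 0.999) without VEN replicate 2, and 0.46 with an adjusted p of 0.0388 in edgeR without VEN replicate 1.

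CYBRD1 (chr2:171522247-171558133, plus strand), a reductase that supplies ferrous iron for uptake, had 13.4 and 40.3 CPM with VEN+CSA, 14.9 and 45.6 CPM with VEN, and 11.3 and 43.4 CPM with CSA. Replicate 2 was 2.94 to 3.73 times replicate 1 in all 3 groups, and the groups overlapped fully. These levels rested on 341 to 446 counts in the replicate 1 libraries and 860 to 1447 in the replicate 2 libraries. The other 9 genes had ratios of 0.594 to 1.59 between replicates. Among the 12690 tested genes, 7 (0.0552%) were at least 2-fold higher in replicate 2 of every group and 6 (0.0473%) at least 2-fold lower. At least as far apart in every group as CYBRD1, and higher in replicate 2, were 2 genes, CYBRD1 among them. That cut is the gap of CYBRD1 itself, which was known when the gene was chosen, so these counts only describe it. The fitted value was −0.17 ± 0.87 on the log2 scale (−2.32 to 1.98) against VEN, −0.03 ± 0.87 against CSA and 0.14 ± 0.87 for VEN against CSA. Without VEN replicate 2 the difference from VEN was 0.85 ± 1.09 and VEN against CSA −0.88 ± 1.09, both with changed sign. With the replicate number as a block the SE was 0.18, with values of −0.17 (−0.61 to 0.28), 0.06 (−0.38 to 0.51) and 0.23 (−0.22 to 0.68). What the replicate numbers share was not tested.

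**Figure D2:**
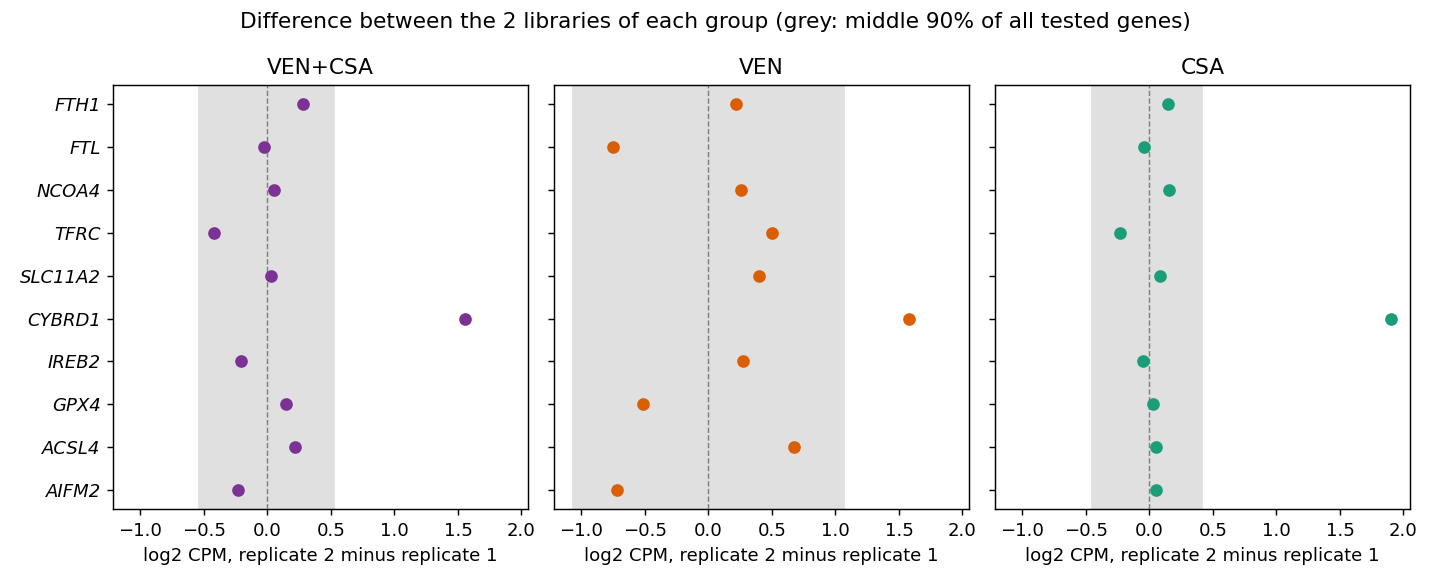
Log2 CPM of replicate 2 minus replicate 1 for each gene, in a panel for each group, with the middle 90% of all tested genes in grey. CYBRD1 lies at 1.56, 1.58 and 1.90 in VEN+CSA, VEN and CSA, outside the grey band, and the other 9 genes lie inside it in all 3 groups.

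IREB2, the iron regulatory protein IRP2 (chr15:78437431-78501456, plus strand) had 163 and 141 CPM with VEN+CSA, 173 and 209 CPM with VEN, and 161 and 156 CPM with CSA. Both VEN libraries were highest. Against VEN the log2 fold change was −0.34 ± 0.17 (adjusted p = 0.529), and −0.19 ± 0.13 (adjusted p = 0.518) without VEN replicate 2. Against CSA it was −0.06 ± 0.17 (adjusted p = 1), and VEN against CSA gave 0.27 ± 0.17 (adjusted p = 0.633), or 0.125 ± 0.13 (adjusted p = 0.999) without VEN replicate 2.

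GPX4, the glutathione-dependent lipid peroxidase (chr19:1103926-1106791, plus strand), had 198 and 219 CPM with VEN+CSA, 214 and 149.5 CPM with VEN, and 212 and 216 CPM with CSA. In 5 of the 6 libraries the level lay within 198 to 219 CPM, and VEN replicate 2 was the low one. The log2 fold change was 0.20 ± 0.21 (−0.32 to 0.71, adjusted p = 0.73) against VEN, −0.04 ± 0.21 (−0.55 to 0.48, adjusted p = 1) against CSA and −0.23 ± 0.21 (adjusted p = 0.645) for VEN against CSA. With VEN replicate 2 left out, the difference from VEN was −0.04 ± 0.11 (−0.32 to 0.24) and VEN against CSA was −0.004 ± 0.11 (−0.28 to 0.28). Without VEN replicate 1 edgeR called GPX4 against VEN (0.48, adjusted p = 0.0387) and in VEN against CSA (−0.52, adjusted p = 0.0286).

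ACSL4, which esterifies long polyunsaturated fatty acids (chrX:109624244-109733403, minus strand), had 132 and 154 CPM with VEN+CSA, 132 and 211 CPM with VEN, and 127 and 132 CPM with CSA. VEN replicate 2 was the high library here. Against VEN its log2 fold change was −0.26 ± 0.25 (adjusted p = 0.701) with all libraries, 0.12 ± 0.13 (adjusted p = 0.699) without VEN replicate 2, and −0.56 (adjusted p = 0.0357, edgeR) without VEN replicate 1. Against CSA it was 0.14 ± 0.25 (adjusted p = 1). VEN against CSA gave 0.40 ± 0.25 (adjusted p = 0.633), 0.02 ± 0.13 (adjusted p = 0.999) without VEN replicate 2, and 0.70 (adjusted p = 0.0208, edgeR) without VEN replicate 1. KCNE5, a potassium channel subunit gene on the same strand, shares 78 exon bases with ACSL4 and held 35.5% and 33.1% of their joint counts with VEN+CSA, 43.7% and 28.9% with VEN, and 43.9% and 43.4% with CSA. The counts of these overlapping genes are therefore uncertain. Their sum was 204.62 and 230.05 CPM with VEN+CSA, 234.99 and 296.86 CPM with VEN, and 227.25 and 233.4 CPM with CSA. The log2 fold change of KCNE5 with VEN+CSA was −0.34 ± 0.16 against VEN and −0.43 ± 0.16 against CSA. With all libraries this was the direction of ACSL4 against VEN but not against CSA. How reads were split between these genes was not tested.

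AIFM2, which regenerates the lipid antioxidant ubiquinol, was the least abundant of the set (chr10:70098223-70132934, minus strand), with 12.5 and 10.6 CPM with VEN+CSA, 8.64 and 5.04 CPM with VEN, and 8.86 and 9.18 CPM with CSA. The groups followed the order seen for both ferritin chains, VEN+CSA above CSA above VEN, without overlap. The nearest VEN and CSA libraries were close, at 8.64 and 8.86 CPM. The share of all tested genes with this order of the 3 groups was not computed. The log2 fold change was 0.75 ± 0.30 against VEN (0.02 to 1.49, 1.68-fold, adjusted p = 0.452) and 0.36 ± 0.29 against CSA (adjusted p = 1). When VEN replicate 2 was left out, the difference from VEN was 0.43 ± 0.19 (adjusted p = 0.363), and without VEN replicate 1 it was 1.20 (adjusted p = 0.0217, edgeR). VEN against CSA gave −0.39 ± 0.30 (adjusted p = 0.634), −0.07 ± 0.19 (adjusted p = 0.999) without VEN replicate 2, and −0.84 (adjusted p = 0.0341, edgeR) without VEN replicate 1.

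The transcription factor NRF2 drives ferritin genes, NQO1 and SLC7A11 through the antioxidant response element, so the core of that element, TGACNNNGC on either strand, was sought in the 250 bases before each RefSeq start (GRCh38.p14). The core stood in 3830 of 35116 promoters (10.9%) and in 1 of 17 promoters of the 10 genes (5.88%), of which 9 genes were in the promoter table. FTH1 was not in it, so its promoter was not searched. Sequence beyond these 250 bases was not searched for any gene, so the counts do not show which genes lack the element. The matching promoter, of AIFM2 on the minus strand, is printed from RefSeq. The match, the reverse complement of the core, is in capitals 14 to 22 bases before the start.
AIFM2 promoter, chr10:70132826-70133075: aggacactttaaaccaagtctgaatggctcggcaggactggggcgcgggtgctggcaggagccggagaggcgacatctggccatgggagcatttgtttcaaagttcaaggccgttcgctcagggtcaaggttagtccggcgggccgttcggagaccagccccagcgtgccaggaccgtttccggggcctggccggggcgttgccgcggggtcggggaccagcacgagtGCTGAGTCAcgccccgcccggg
The match is a description of letters, and binding there was not measured.

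None of the 10 genes passed the test at adjusted p under 0.05 with all 6 libraries in any comparison, nor did any of the 12690 genes (0%), the smallest adjusted p being 0.058, 0.129 and 0.146 for VEN+CSA against VEN, VEN+CSA against CSA and VEN against CSA (edgeR). At an unadjusted p under 0.05 stood 2 of 10 for VEN+CSA against VEN (FTH1 and AIFM2, both higher), where 1372 of all tested genes (10.8%) did, and 5.33% did so in the higher direction. The count was also 2 of 10 for VEN+CSA against CSA (FTH1 and TFRC, both higher), beside 462 genes (3.64%; 1.95% higher), and 0 of 10 for VEN against CSA, beside 609 genes (4.8%). In a set of 10 a single gene is a share of 10%, so these counts do not stand clear of the shares over all genes. Without VEN replicate 2 the counts were 1 of 10 (FTH1), 3 of 10 (FTH1, TFRC and SLC11A2) and 1 of 10 (FTH1, lower), beside 15.5%, 12% and 4.78% of genes, and over the 6 fits that each left out a library they ran over 1 to 6, 0 to 3 and 0 to 8. Both VEN+CSA libraries lay above both VEN libraries for 3 of the 10 (FTH1, FTL and AIFM2) and below for 1 (IREB2), where 19.2% and 18.9% of all genes did. Above CSA lay 5 of 10 (FTH1, FTL, TFRC, SLC11A2 and AIFM2) and below it none, beside 23.5% and 23.7%. VEN lay above CSA for 5 (NCOA4, TFRC, SLC11A2, IREB2 and ACSL4) and below for 3 (FTH1, FTL and AIFM2), beside 20.8% and 19.9%. In that comparison the fold changes of NCOA4, SLC11A2 and IREB2 were negative when scaled by library size alone. Some gaps were narrow, the nearest VEN and CSA libraries having 132.3 and 132.1 CPM for ACSL4 and 214.6 and 214.0 CPM for NCOA4. For SLC11A2 they had 36.1 and 35.6 CPM, and for AIFM2 8.64 and 8.86 CPM. The median log2 fold change of the 10 was 0.064, 0.114 and 0.178 in the 3 comparisons, and that of all genes −0.008, −0.002 and −0.003. With VEN replicate 2 left out, the medians of the 10 were 0.214, 0.113 and 0.009. These comparisons share libraries and are not independent.

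DESeq2 called 1 of 10 for VEN+CSA against VEN (FTH1) where it called 2.23% of genes, and none of 10 for the other 2 comparisons where it called 0.425% and 0.45%. When VEN replicate 2 was left out, edgeR called none of the 10, beside 0.379%, 0.185% and 0% of genes. Without VEN replicate 1 it called 5 of 10 for VEN+CSA against VEN, beside 26.4% of genes, none for VEN+CSA against CSA, beside 0.185%, and 6 of 10 for VEN against CSA, beside 33.8%. With that library left out, the VEN group is the library with 41.5% mitochondrially encoded counts, and its part in those calls cannot be told apart from that of the drug.

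**Figure D3:**
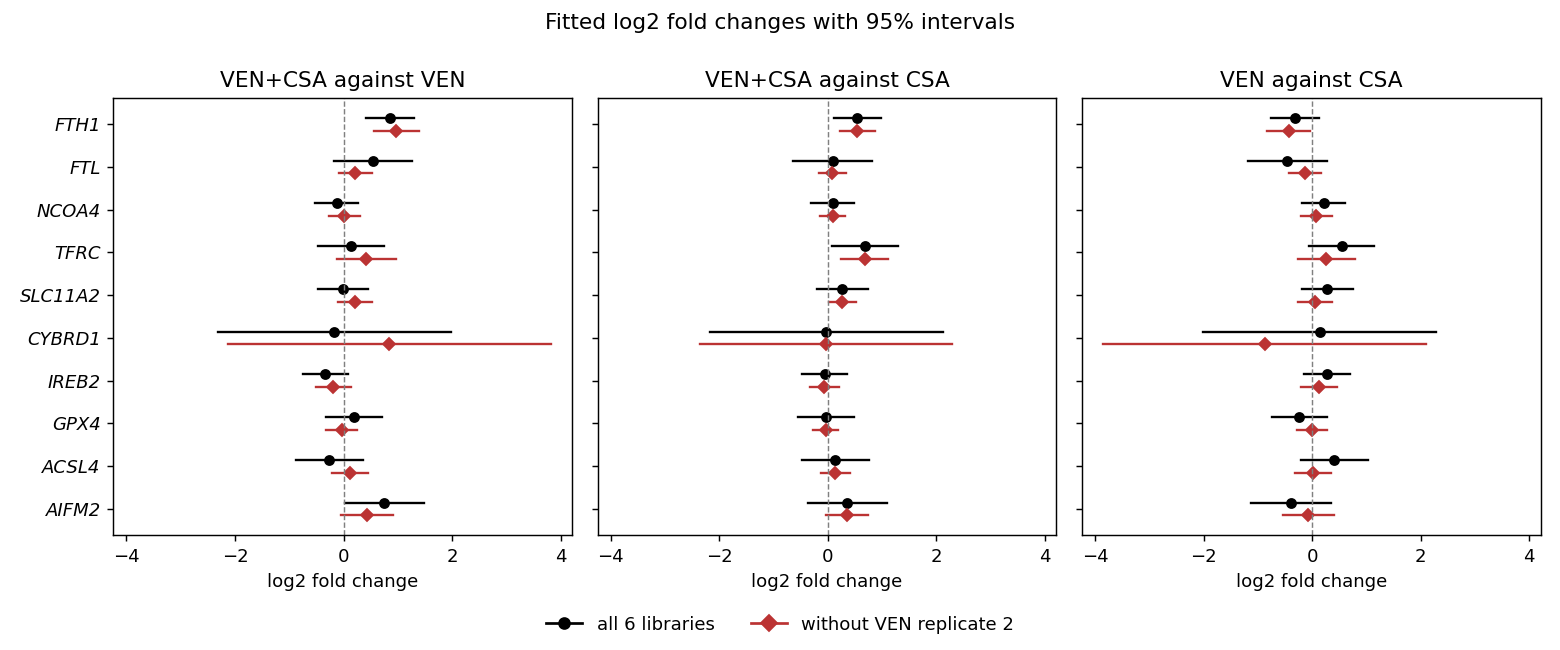
Log2 fold change of each gene in the 3 comparisons, with 95% intervals, from all 6 libraries (black) and without VEN replicate 2 (red). FTH1 is at 0.86 and 0.98 against VEN and at 0.54 in both fits against CSA, TFRC is at 0.68 in both fits against CSA, and the CYBRD1 intervals are the widest in every panel.

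The genes whose levels ran most like FTH1 over the 6 libraries, among 8840 genes with a mean of at least 10 CPM, were KRI1 (Pearson's r = 0.996), STT3A (0.995) and NPIPA1 (0.991). Those most like TFRC were CERT1 (0.988), CYCS (0.984) and LSM5 (0.981). The libraries share groups and depth, and with 6 points such values describe likeness only.

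The pathways around the 10 genes were read from 7 lists, and with all 6 libraries no member of any list passed at an adjusted p under 0.05. In the ferroptosis defence list, 5 of 18 tested members had an unadjusted p under 0.05 for VEN+CSA against VEN, 3 higher (SLC7A11, SLC3A2 and NQO1) and 2 lower (SCD and NFE2L2), beside 10.8% of all genes, with a list median of 0.167. For VEN+CSA against CSA they were 3 of 18, SLC7A11 and NQO1 higher and SCD lower, beside 3.64%, with a median of 0.135. For VEN against CSA they were 2 of 18, NFE2L2 higher and SLC7A11 lower, beside 4.8%, with a median of −0.026. Without VEN replicate 2 the counts were 6, 5 and 2 of 18, beside 15.5%, 12% and 4.78% of genes, with medians of 0.148, 0.133 and −0.005.

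SLC7A11, the cystine importer that feeds glutathione synthesis, had 88.4 and 82.1 CPM with VEN+CSA, 20.03 and 25.8 CPM with VEN, and 44.9 and 43.3 CPM with CSA. Its log2 fold change was 1.90 ± 0.19 against VEN (edgeR adjusted p = 0.078) and 0.95 ± 0.18 against CSA (adjusted p = 0.708), and VEN against CSA gave −0.95 ± 0.19 (adjusted p = 0.633). With VEN replicate 2 left out, it passed against VEN (2.09 ± 0.13, adjusted p = 0.0405), the one list gene that did, and VEN against CSA was −1.15 ± 0.13 (adjusted p = 0.164). NQO1, a quinone reductase and NRF2 target, had 63.5 and 60.6 CPM with VEN+CSA, 34.1 and 20.6 CPM with VEN, and 38.5 and 37.8 CPM with CSA. It was thus highest in both VEN+CSA libraries, with log2 fold changes of 1.18 ± 0.26 against VEN (adjusted p = 0.256) and 0.70 ± 0.26 against CSA (adjusted p = 1), and 0.87 ± 0.12 against VEN (adjusted p = 0.0806) without VEN replicate 2. NFE2L2, which encodes NRF2 itself, had 58.6 and 53.5 CPM with VEN+CSA, against 100.5 and 76.5 CPM with VEN. The NFE2L2 log2 fold change was −0.66 ± 0.20 against VEN (adjusted p = 0.387), or −0.84 without VEN replicate 2, and CSA had 45.2 and 54.7 CPM. Whether NRF2 activity differed between the groups was not tested. SCD, which makes the monounsaturated lipids that resist peroxidation, had 267 and 272 CPM with VEN+CSA, 419 and 359 CPM with VEN, and 427 and 434 CPM with CSA, lowest in both VEN+CSA libraries.

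Among ferroptosis drivers, 4 of 18 tested members had an unadjusted p under 0.05 for VEN+CSA against VEN: CHAC1, CYB5R1 and VDAC2 higher and FADS2 lower, beside 10.8% of genes, with a list median of 0.093. CHAC1, which degrades glutathione, had 9.84 and 18.8 CPM with VEN+CSA, 3.19 and 1.75 CPM with VEN, and 9.55 and 8.64 CPM with CSA. The VEN libraries were lowest, and the log2 fold change was 2.52 ± 0.43 against VEN (adjusted p = 0.188), or 2.17 ± 0.45 (adjusted p = 0.155) without VEN replicate 2. Against CSA 3 of 18 drivers had such a p, CYBB and VDAC2 higher and FADS2 lower, beside 3.64% of genes (median 0.082). For VEN against CSA 3 of 18 did, CYBB higher and CHAC1 and CYB5R1 lower, beside 4.8% (median −0.194). When VEN replicate 2 was left out, the driver counts were 6, 7 and 2 of 18, beside 15.5%, 12% and 4.78%, with medians of 0.172, 0.081 and −0.109. VDAC2, a mitochondrial outer membrane channel, had 153.6 and 146 CPM with VEN+CSA, 105 and 78.6 CPM with VEN, and 114 and 96.8 CPM with CSA. FADS2, a desaturase, had 147 and 163 CPM with VEN+CSA, 204 and 203 CPM with VEN, and 201 and 204 CPM with CSA.

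In haem synthesis and breakdown 1 of 13 tested members, SLC48A1, had an unadjusted p under 0.05 for VEN+CSA against VEN, beside 10.8% of genes (median 0.176), and none did in the other 2 comparisons (medians 0.027 and −0.097). Without VEN replicate 2 the counts were 4, 2 and 0 of 13, beside 15.5%, 12% and 4.78%, with medians of 0.093, 0.027 and −0.076. SLC48A1, a haem transporter of endolysosomes, had 48.1 and 54.7 CPM with VEN+CSA, 33.8 and 21.6 CPM with VEN, and 35.8 and 38.4 CPM with CSA. HMOX1, the haem oxygenase that frees iron, had 7.14 and 6.76 CPM with VEN+CSA, 11.997 and 5.73 CPM with VEN, and 9.75 and 11.2 CPM with CSA. The VEN libraries spanned the HMOX1 range, with a log2 fold change of −0.36 ± 0.36 against VEN (adjusted p = 0.719), or −0.78 without VEN replicate 2. In selenoprotein synthesis, which GPX4 needs, SARS1 alone of 8 genes had such a p for VEN+CSA against VEN, beside 10.8% (median 0.236), none did for VEN+CSA against CSA (median 0.121), and SARS1 alone did for VEN against CSA, beside 4.8% (median −0.105). With VEN replicate 2 left out, the counts were 3, 1 and 1 of 8, beside 15.5%, 12% and 4.78%, with medians of 0.248, 0.12 and −0.129. SARS1, a seryl-tRNA synthetase, had 132 and 135 CPM with VEN+CSA, 85.2 and 68.1 CPM with VEN, and 101 and 116 CPM with CSA.

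Iron uptake and export (7 of 14 listed genes tested), iron sensing and chaperones (10 of 10) and iron-sulphur cluster assembly (14 of 14) had no member at an unadjusted p under 0.05 in any comparison with all 6 libraries. Their medians were 0.308, 0.013 and −0.025 for VEN+CSA against VEN, −0.03, −0.117 and −0.02 for VEN+CSA against CSA, and −0.199, −0.134 and −0.011 for VEN against CSA. When VEN replicate 2 was left out, leaving 1 VEN library, the median against VEN was −0.079 for uptake and export, with changed sign. It was −0.157 for sensing and chaperones and −0.046 for iron-sulphur clusters, beside 0.007 for all genes. In that fit STEAP3, an endosomal ferric reductase, and PCBP1, an iron chaperone, had an unadjusted p under 0.05 against VEN, both lower, beside 15.5% of genes. Against CSA PCBP1 and FDXR, a ferredoxin reductase, did, both lower, beside 12%, with list medians of −0.031, −0.119 and −0.021, and for VEN against CSA none did, with medians of −0.035, 0.003 and −0.015. SLC40A1, the iron exporter, had no count in any library. PCBP2, an iron chaperone, had 335 and 306 CPM with VEN+CSA, 338 and 257 CPM with VEN, and 363 and 342 CPM with CSA. SLC39A14, a metal importer, had 176 and 151 CPM with VEN+CSA, 149 and 96.6 CPM with VEN, and 161 and 149 CPM with CSA. Both genes were lowest in VEN replicate 2.

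**Figure D4:**
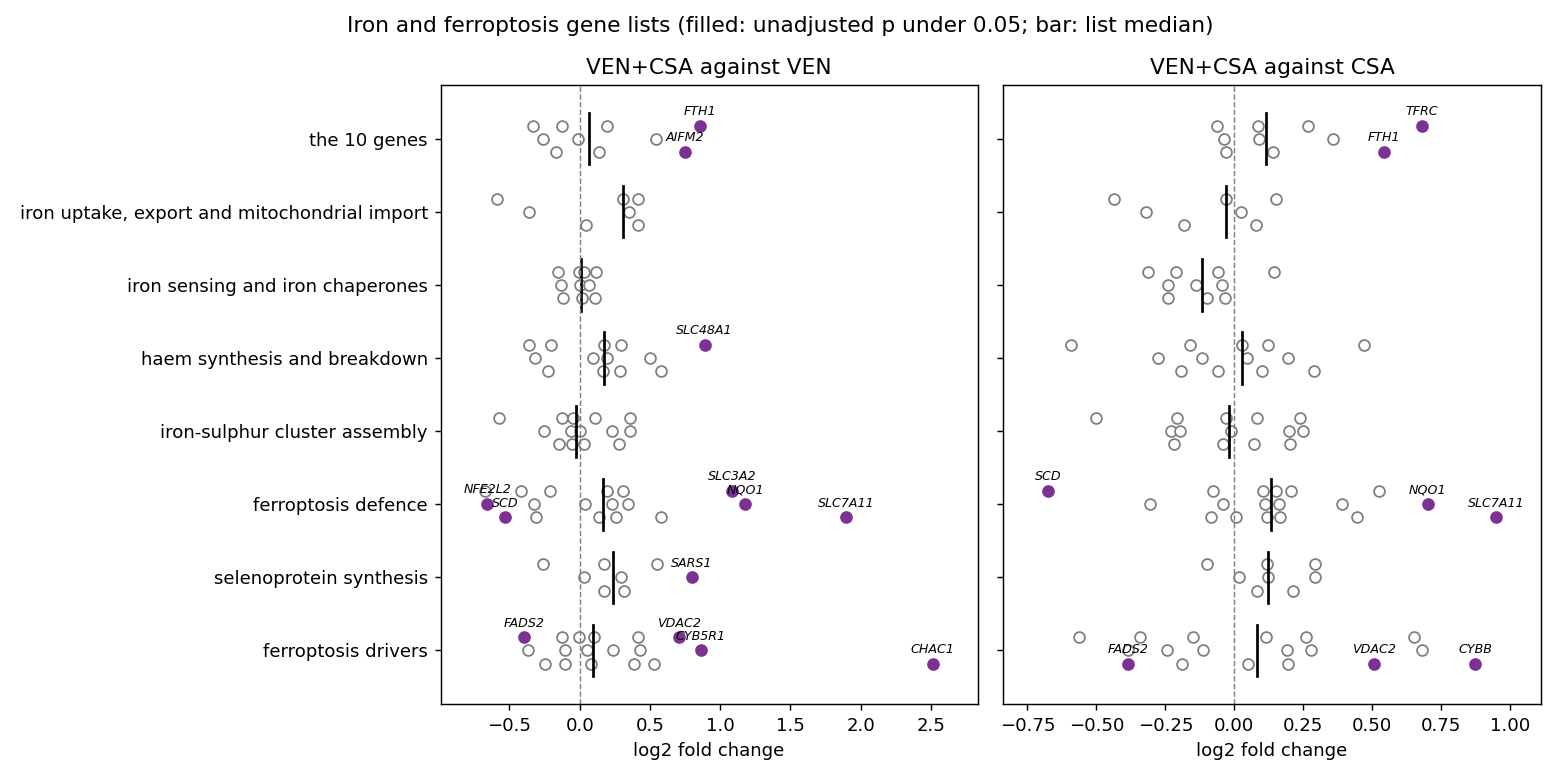
Log2 fold change of each tested gene in the 10 genes and the 7 lists, for VEN+CSA against VEN and VEN+CSA against CSA, with all 6 libraries. Filled points have an unadjusted p under 0.05 and are named, and the bar is the list median. SLC7A11 is at 1.90 and 0.95, CHAC1 is at 2.52 against VEN, and the iron sensing list has a median of 0.013 against VEN, which is −0.157 without VEN replicate 2 (not drawn).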

How the data were processed

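The authors' deposited table held whole-number counts per gene, not normalized. The submitters' processing notes name STAR, RSEM, DESeq2 and hg38, in no stated role, and no strand setting is given in the sources read. Per the labels' protocols, Trizol RNA went into KAPA RNA HyperPrep libraries read as 150-bp pairs. Even numbers were in excess among low counts, which may therefore carry more error than the model assumes. In the table, 2 columns could not be assigned to a sample by the labels and were not used. Libraries were grouped by title.

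Of 20263 genes, 20148 matched a symbol and 20224 matched GENCODE 29 (GRCh38), the source of coordinates. Genes that passed filterByExpr were scaled by TMM and fitted by group with edgeR 4.0.16 in R 4.3.3 (robust quasi-likelihood, two-sided, Benjamini-Hochberg over 12690 genes, threshold 0.05, 3 residual degrees of freedom). Every p-value and adjusted p in the text is from that test unless another tool is named. SEs and 95% intervals come from it, and cover the spread among 2 libraries per group. Alternatives were DESeq2 1.42.0, limma-voom (limma 3.58.1), other scalings, no filter, only the 4 libraries compared, a replicate block, and leaving out each library, where a lone library was taken to vary as the remaining groups do.

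The 10 genes and the lists were chosen with earlier results of these data known. Named genes were the 10, and per list and comparison the genes with an adjusted p under 0.05 with or without VEN replicate 2, otherwise the 3 with the smallest p. SLC40A1 and any other listed gene outside that rule, such as those named for an unadjusted p under 0.05, were chosen after their values were seen. The labels do not say that replicate numbers pair libraries. Over the tested genes, the deviations of same-numbered libraries from their group means were correlated. The values were 0.344 (VEN+CSA and VEN), 0.236 (VEN+CSA and CSA) and 0.251 (VEN and CSA), from 1 replicate difference per group. Mitochondrially encoded genes also had a larger share in replicate 2 of every group. What same-numbered libraries have in common was not tested. The values reported come from the fit without a block, and the block is an alternative.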

Additional observations from a re-analysis of the deposited data

How the results depend on the processing

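Of 390 fold changes of the 10 genes under 13 alternatives, 351 kept their direction and side of the threshold, 27 changed sign and 12 passed the threshold. FTH1 against VEN passed by DESeq2, and all other passes, with FTH1 against VEN again among them, were without VEN replicate 1. FTH1 stayed positive in all 13 against VEN (0.72 to 1.15) and against CSA (0.40 to 0.68), TFRC against CSA (0.45 to 0.88) and AIFM2 against VEN (0.43 to 1.20). In the order VEN+CSA against VEN, VEN+CSA against CSA and VEN against CSA, genes called were 15, 4 and 2 with no filter and 294, 56 and 62 with DESeq2, which called 1 of the 10 in the first, limma-voom called 1 and the 4 libraries alone 24 in the second, and leaving out a library gave 0 to 3426, 0 to 24 and 0 to 4385. Members called with a library left out ran over 0 to 5, 0 and 0 to 6, and members' medians over −0.143 to 0.214, 0.084 to 0.239 and −0.058 to 0.368. With scaling by library size alone, the median of all genes was 0.26, −0.044 and −0.314 and the members' median 0.356 in the first and −0.245 in the third. There NCOA4 was 0.18, SLC11A2 0.31, CYBRD1 0.27 and ACSL4 0.089 against VEN, and for VEN against CSA NCOA4 was −0.13, SLC11A2 −0.088, CYBRD1 −0.36 and IREB2 −0.076. Limma-voom gave SLC11A2 0.013 against VEN and CYBRD1 0.036 against CSA. The replicate block gave SLC11A2 0.001 against VEN and CYBRD1 0.063 against CSA, both with changed sign, and it changed no call. With a library left out, values that changed sign ranged, against VEN, over −0.25 to 0.012 for NCOA4, −0.089 to 0.42 for TFRC, −0.20 to 0.21 for SLC11A2, −1.17 to 0.85 for CYBRD1, −0.036 to 0.48 for GPX4 and −0.56 to 0.12 for ACSL4. Against CSA they ranged over −1.03 to 1.25 for CYBRD1, −0.17 to 0.04 for IREB2 and −0.11 to 0.032 for GPX4, and for VEN against CSA over −0.88 to 1.42 for CYBRD1. The cause of these changes was not tested. The lowest count of the 10 genes was 95, for AIFM2 in VEN replicate 2, and 2 libraries per group leave wide intervals.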
